A study of Mus musculus with 2 samples.

Results

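The imprinted growth-control genes examined here are 9 genes, *Dlk1*, *Meg3*, *H19*, *Peg3*, *Plagl1*, *Cdkn1c*, *Grb10*, *Mest* and *Ndn*, out of the 23628 genes listed for Sox9GFPHi chondrospheres, spheres grown in gel from cartilage cells with high *Sox9* reporter signal. The set was selected on the level of *Dlk1*, which was about 42-fold higher in replicate 2 than in replicate 1, and the other 8 were added as genes of the same kind, to see whether they moved with it. All 9 are listed with a value above 0 in both libraries, and all 9 averaged 1 CPM or more, where CPM are counts-per-million. The libraries are 2 replicates of 1 condition. Homozygous Sox9-IRES-EGFP reporter pups, which carry a green fluorescent reporter behind the *Sox9* coding sequence, gave femoral heads at postnatal day 7. Live GFP-high cells without endothelial, erythroid or leukocyte surface markers were sorted and grown for 3 to 4 weeks in 1% methylcellulose at 5% oxygen, in a medium with serum, FGF2, BMP4, IGF1, LIF and TGF-β1. The labels name no difference between the replicates and do not say which pup or culture each came from, although the methods treat every pup as a replicate of its own.

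Genomic imprinting is the marking of a gene by the parent it came from, so that only the copy from the father or only the copy from the mother is transcribed. Many imprinted genes set the growth of the fetus and the young animal, are high in fetal tissues and decline after birth. Broadly, paternally expressed genes tend to promote growth and maternally expressed genes tend to restrain it. Imprinted genes lie in clusters around control regions whose DNA methylation differs between the parental copies, and neighbours are often transcribed from opposite copies. Of the 9 genes, *Dlk1*, *Peg3*, *Plagl1*, *Mest* and *Ndn* are paternally expressed in most tissues, and *Meg3*, *H19*, *Cdkn1c* and *Grb10* maternally. Reads were summed per gene, so the parental copy that was transcribed was not measured.

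*Dlk1* and *Meg3* share one imprinted cluster, and their start regions are shown because they are the neighbours whose levels diverged most between the libraries. Each is a RefSeq window of 300 bases on GRCm38.p6, from 250 bases before to 50 bases after the annotated start, on the plus strand. *Dlk1* is at chr12:109452573-109452872, and the first of 2 windows for *Meg3* is at chr12:109540746-109541045. Capitals mark matches to TGCCGC, the letters bound by the imprint protector ZFP57, to GGGGCCCC, a palindrome bound by PLAGL1, to the GC box GGGCGG and to TATAAA, each searched on both strands.
Dlk1: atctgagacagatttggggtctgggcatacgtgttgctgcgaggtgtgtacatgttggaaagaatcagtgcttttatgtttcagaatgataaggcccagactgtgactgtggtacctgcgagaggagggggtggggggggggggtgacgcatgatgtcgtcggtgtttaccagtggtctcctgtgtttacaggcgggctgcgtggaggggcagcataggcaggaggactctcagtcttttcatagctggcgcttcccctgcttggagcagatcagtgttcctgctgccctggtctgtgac
Meg3: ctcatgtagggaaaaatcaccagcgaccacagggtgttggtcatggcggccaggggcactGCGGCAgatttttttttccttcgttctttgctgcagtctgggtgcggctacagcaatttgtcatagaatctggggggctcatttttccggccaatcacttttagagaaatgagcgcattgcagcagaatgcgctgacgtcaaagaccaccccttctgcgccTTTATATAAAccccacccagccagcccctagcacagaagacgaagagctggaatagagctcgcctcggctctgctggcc
The *Dlk1* window holds none of the 4 motifs and 9 CpG dinucleotides. The *Meg3* window holds 1 match to TGCCGC, 2 overlapping matches to TATAAA on opposite strands, and 13 CpGs. Among all 32851 windows of this length, TGCCGC is found in 11.6%, TATAAA in 13.6%, GGGCGG in 35.7% and GGGGCCCC in 1.08%, and the median number of CpGs is 7. Windows were found for 7 of the 9 genes, and the first *Grb10* window was the richest with 45 CpGs, more than in 98.1% of all windows. The *Peg3* window, at chr7:6730370-6730669 on the minus strand, was the only one of these with GGGGCCCC. A match is a description of letters and not a measured binding site, and methylation was not measured.

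*H19* and *Mest* are also hosts of microRNAs, and their mature sequences are printed because they lie in transcripts that behaved differently. They come from RefSeq (GRCm38.p6), and the capitals mark the seed, bases 2 to 8. The pair of *H19* lies on the minus strand at chr7:142577112-142577133 and chr7:142577078-142577099, and the pair of *Mest* on the plus strand at chr6:30741314-30741336 and chr6:30741354-30741375.
mmu-miR-675-5p, in an exon of *H19*: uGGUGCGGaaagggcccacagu
mmu-miR-675-3p, in an exon of *H19*: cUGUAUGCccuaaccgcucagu
mmu-miR-335-5p, in an intron of *Mest*: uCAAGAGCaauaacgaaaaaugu
mmu-miR-335-3p, in an intron of *Mest*: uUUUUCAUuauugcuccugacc
No 2 of these share a seed, and none shares its seed with any other of the 1738 mature microRNAs in the table. *Meg3* holds miR-770 and miR-1906, and 58 microRNA hairpins lie between the start of *Meg3* and the end of *Dio3*. Poly(A) libraries count the host transcripts and not the mature microRNAs, so no microRNA level was measured here.

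Levels are in CPM, which depend on the total of each library, and paired values are given with replicate 1 first. The steps between low values put 1 read at 0.0231 CPM in replicate 1 and 0.0237 CPM in replicate 2 (about 43300000 and 42200000 reads on genes), so 3 reads correspond to 0.0693 and 0.0712 CPM. Among the 12631 genes that averaged 1 CPM or more, the log2 ratio of replicate 2 over replicate 1, taken after adding 0.1 CPM to each value, had a median of 0.30. The 10 highest genes took 43.4% of replicate 1 and 34.7% of replicate 2, so ratios are also given relative to that median. With 2 libraries of 1 condition, the difference between them is itself the spread between replicates, and no test can set it against a larger or smaller spread. Intervals given with folds are exact 95% binomial intervals on the estimated reads and cover counting error only. In bulk libraries, a change in the number of cells that express a gene and a change in RNA per cell cannot be told apart.

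The 9 genes did not share one direction between the libraries. *Dlk1* was far higher in replicate 2, *H19* was lower by more than 2-fold, and the other 7 stayed within 2-fold on the per-million scale. Of the 9, 1 was more than 2-fold higher in replicate 2, against 11.4% of all genes compared, and that gene is the one the set was chosen for. Likewise 1 was more than 2-fold lower, against 3.71% of all genes. Relative to the median of all genes there was again 1 higher (background 7.43%) and there were 2 lower, *H19* and *Cdkn1c* (background 6.06%). Among all genes past 2-fold, 75.4% were higher on the per-million scale and 55.0% relative to the median. The median log2 ratio was -0.05 for the 9 genes and -0.22 without *Dlk1*, and 6 of the 9 lay below the median of all genes.

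**Figure D1:**
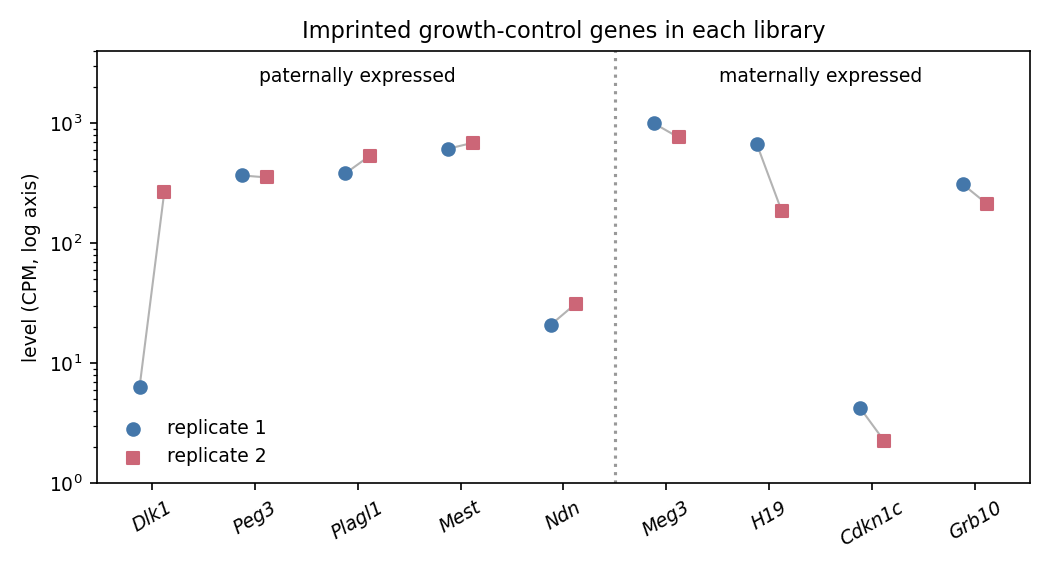
Level of each gene in CPM on a log axis, with a circle for replicate 1 and a square for replicate 2, joined by a line, and paternally expressed genes on the left. *Dlk1* climbs from 6.38 to 266.9 CPM. All 4 maternally expressed genes are lower in replicate 2, as are 25.7% of all genes averaging 1 CPM or more.

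*Dlk1* encodes a transmembrane protein with EGF-like repeats, related to the Notch ligands and known for holding back adipocyte differentiation. It lies on chromosome 12 of GRCm38 from 109452823 to 109463336 on the plus strand. Its level was 6.38 CPM in replicate 1 but 266.9 CPM in replicate 2, or about 276 and 11250 reads. The fold of 41.9 had a counting interval of 37.1 to 47.3, and relative to the median of all genes the log2 ratio was 5.06. Only 10 of the 12631 genes had a higher ratio. This is the value on which the set was chosen and is given as a description.

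Among the other paternally expressed genes, *Peg3* and *Mest* were close to level between the libraries. *Peg3*, which encodes a large zinc-finger protein (chromosome 7 from 6703892 to 6730431), was measured at 366 and 352 CPM. Its fold difference was the smallest of the 9 on the per-million scale, with a log2 ratio of -0.05. Relative to the median of all genes, the log2 ratio of *Peg3* was -0.36. *Mest*, which encodes a protein of the alpha/beta hydrolase fold (chromosome 6 from 30723547 to 30748465), was measured at 612 and 685 CPM. Its direction depends on the scale, with a log2 ratio of 0.16 on the per-million scale and -0.14 relative to the median of all genes. The end of *Mest* overlaps that of *Copg2* on the opposite strand, and although the libraries were stranded, the strand setting of the counting step is not given in the sources used here beyond default parameters.

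*Plagl1* and *Ndn* were modestly higher in replicate 2. *Plagl1*, which encodes a zinc-finger transcription factor that acts on other imprinted genes (chromosome 10 from 13060504 to 13131694), had 381 and 536 CPM. *Ndn*, which encodes necdin, a MAGE family protein that restrains proliferation (chromosome 7 from 62346569 to 62350262), had 21.0025 and 31.4 CPM. Their log2 ratios relative to the median were 0.19 and 0.27, and neither came near 2-fold.

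All 4 maternally expressed genes were lower in replicate 2, on the per-million scale and relative to the median. Of all genes compared, 25.7% had a log2 ratio below 0 on the per-million scale. The 10 other maternally expressed genes compared, described below, had a median log2 ratio of 0.17 on that scale. Of these 10, 7 lay below the median gene. *H19* is a long noncoding RNA on chromosome 7, from 142575529 to 142578143 on the minus strand, and is known for restraining growth. It had 665 and 186 CPM, a level 3.57-fold lower (counting interval 3.48 to 3.66), with a log2 ratio of -2.14 relative to the median. Only 141 of the 12631 genes had a lower ratio. *Grb10* encodes an adaptor that dampens insulin and IGF1 receptor signalling (chromosome 11 from 11930508 to 12038683). It had 310 and 211 CPM, with a log2 ratio of -0.86 relative to the median.

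*Cdkn1c* encodes the CDK inhibitor p57, which growth plate chondrocytes need to leave the cell cycle, and lies on chromosome 7 from 143458339 to 143461050. It was the lowest of the 9 by mean, with 4.27 and 2.24 CPM, or about 185 and 94 reads. The level was 1.91-fold lower in replicate 2, with a counting interval of 1.49 to 2.48 that spans 2-fold. It passed 2-fold relative to the median, where its log2 ratio was -1.21, and not on the per-million scale. *Meg3*, a long noncoding RNA on chromosome 12 from 109541001 to 109571726, had 993 and 758 CPM, the highest mean of the 9 at 876 ± 166 CPM (SD, n = 2).

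**Figure D2:**
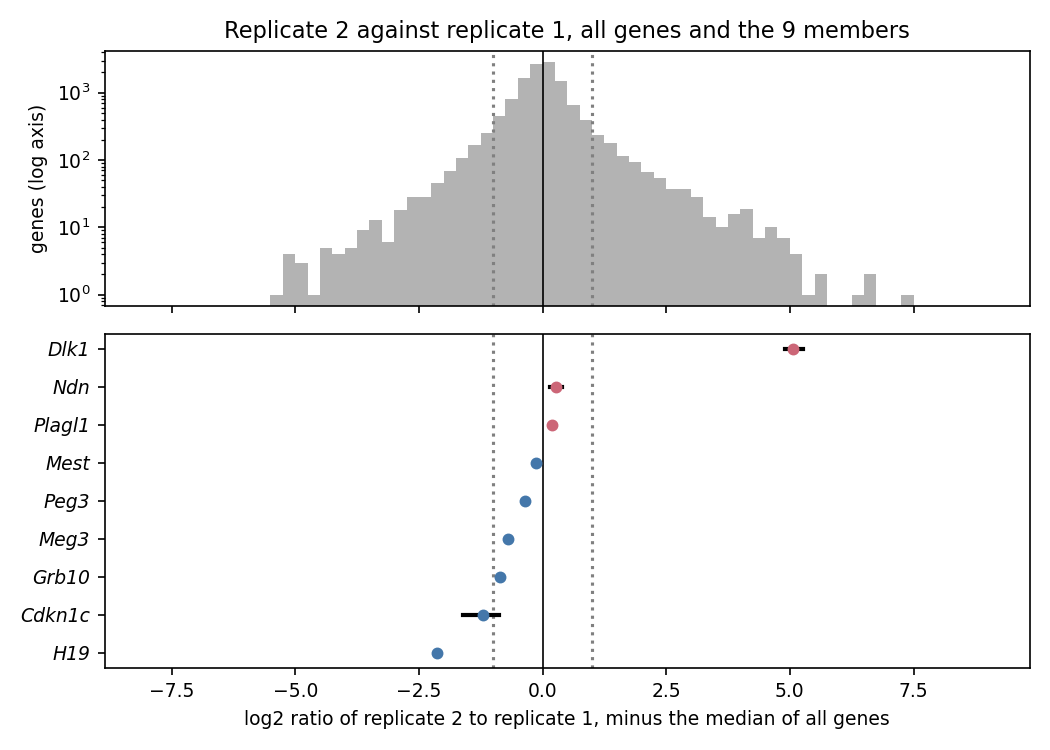
Top, number of genes on a log axis by log2 ratio of replicate 2 to replicate 1, minus the median of all genes averaging 1 CPM or more. Bottom, the same ratio for each of the 9 genes, with a bar for the 95% counting interval and dotted lines at 2-fold; *Dlk1* sits at 5.06 in the far upper tail and *H19* at -2.14.

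By parent of origin, and leaving out *Dlk1* since its value chose the set, the median log2 ratio relative to all genes was 0.02 for the other 4 paternally expressed members, of which 2 lay above the median gene. With *Dlk1* it was 0.19, with 3 of 5 above. It was -1.03 for the 4 maternally expressed members, of which 0 did. These are descriptions of a few genes in 2 libraries. The summed level of the paternally expressed members without *Dlk1* went from 1379 to 1604 CPM, and with it from 1386 to 1871 CPM. That of the maternally expressed members went from 1971 to 1158 CPM, and *H19*, with 665 and 186 CPM, held the largest part of this fall. In the wider lists without the members, given below, the sums went the opposite way. Other paternally expressed genes went from 642 to 417 CPM, with *Igf2* at 426 and 197 CPM. Other maternally expressed genes went from 2057 to 2581 CPM. The largest of them were *Gnas* (985 and 1131 CPM), *Igf2r* (501 and 752 CPM) and *Rian* (412 and 507 CPM). Parent of origin is taken from the lists, and the copy transcribed in these spheres was not measured.

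Levels of different genes were compared per kilobase of exon, since CPM favour long transcripts such as *Meg3*, whose annotated exons cover 18089 bases. On that scale, CPM per kilobase, *H19* stood first in replicate 1 at 270, followed by *Mest* at 155, *Meg3* at 54.9 and *Plagl1* at 48.7. *Grb10* had 34.1, *Peg3* 27.5, *Ndn* 5.69, *Cdkn1c* 2.10 and *Dlk1* 1.13, the lowest. In replicate 2 *Mest* stood first at 174, then *H19* at 75.7, *Plagl1* at 68.5 and *Dlk1* at 47.2. *Meg3* had 41.9, *Peg3* 26.4, *Grb10* 23.2, *Ndn* 8.50 and *Cdkn1c* 1.10. *Dlk1* thus moved from place 9 to place 4, the largest change of place, which follows from the value that chose the set.

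In the order of their means per kilobase, most neighbours could not be separated. The ranges of the 2 libraries overlapped for *H19* and *Mest*, for *Plagl1* and *Meg3*, for *Grb10* and *Peg3*, for *Peg3* and *Dlk1*, and for *Dlk1* and *Ndn*. They did not overlap between *Mest* and *Plagl1*, between *Meg3* and *Grb10*, or between *Ndn* and *Cdkn1c*. Some of this depends on the length used. Per kilobase of the longest annotated transcript, *Meg3* (68.3 and 52.1) overlapped *Grb10* (61.2 and 41.7) but not *Plagl1* (72.4 and 101.8). In replicate 2 *Plagl1* then stood above *H19*, which had 81.5.

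Within the cluster on chromosome 12, no imprinted neighbour of *Dlk1* differed by 2-fold between the libraries. *Meg3* was lower, and the noncoding RNA *Rian*, which like *Meg3* is transcribed from the maternal copy, had 412 and 507 CPM, 1.23-fold higher in replicate 2 and a log2 ratio of -0.0044 against the median gene. *Mirg*, a further maternal noncoding RNA of the cluster, had 25.6 and 28.2 CPM, 1.10-fold higher. *Rtl1*, a paternally expressed gene derived from a retrotransposon, had 1.64 and 2.25 CPM, 1.37-fold higher and at 0.13 relative to the median. *Dio3*, which encodes the thyroid hormone deiodinase at the far end of the cluster, was listed at 0 in both.

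The ratio of *Dlk1* to *Meg3* within a library is free of the scaling of that library. Per kilobase of exon, it stood at -5.61 (log2) in the first library and 0.17 in the second, so *Dlk1* was 48.7-fold below *Meg3* in replicate 1 and 1.13-fold above it in replicate 2. The mean of -2.72 was smaller than its SD of 4.08 (n = 2). Most of the change in this ratio is the change of *Dlk1* itself, whose value chose the set, so the ratio is a description only. Among neighbours outside the imprinted lists, *Begain* was also higher, with 0.531 and 1.95 CPM on about 23 and 82 reads. *Begain* reached 1 CPM in replicate 2 only, whereas *Dlk1* did so in both. *Yy1*, *Slc25a29*, *Wars*, *Wdr25*, *Ppp2r5c* and *Dync1h1* lay between -0.12 and 0.34 relative to the median.

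In the cluster at the distal end of chromosome 7, *H19* and its paternally expressed partner *Igf2* were both lower in replicate 2. *Igf2*, which encodes insulin-like growth factor 2 and shares enhancers with *H19*, had 426 and 197 CPM, a level 2.17-fold lower. Per kilobase of exon, *H19* exceeded *Igf2* by a log2 ratio of 1.86 in replicate 1 and 1.14 in replicate 2, a mean of 1.499 ± 0.51 (SD, n = 2), and without length by 0.64 and -0.08. Farther along, *Cd81*, *Tssc4*, *Kcnq1ot1*, *Nap1l4* and *Cars* lay between -0.06 and 0.41 relative to the median. *Phlda2*, a maternally expressed inhibitor of placental growth beside *Cdkn1c*, went the other way, but from 0.0924 CPM on about 4 reads to 2.06 CPM on about 87.

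**Figure D3:**
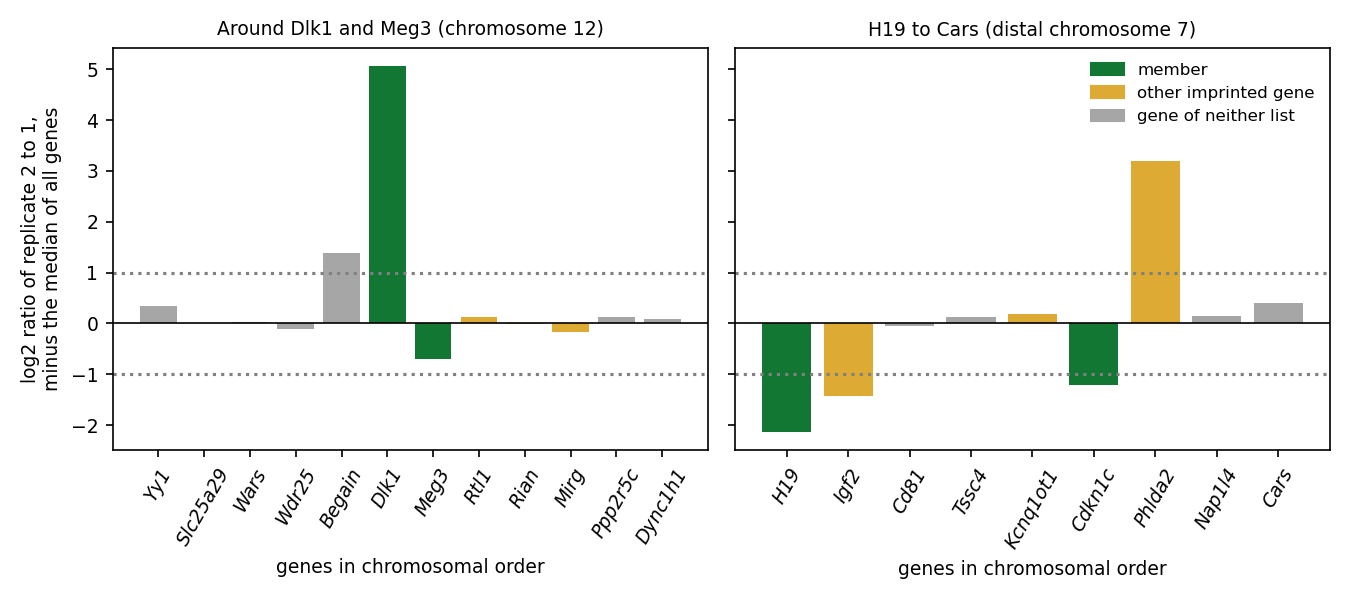
Log2 ratio of replicate 2 to replicate 1, minus the median of all genes, for genes averaging 1 CPM or more in chromosomal order around *Dlk1* and *Meg3* (left) and from *H19* to *Cars* (right), with dotted lines at 2-fold. *Dlk1* at 5.06 stands beside *Meg3* at -0.69, and *H19* and *Igf2* are both below -1.

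Other imprinted genes were taken from lists of 28 paternally and 24 maternally expressed genes, of which 28 and 19 are listed here and 5 (*Kcnq1*, *Slc22a2*, *Slc22a3*, *Kcnk9* and *Calcr*) were not analysed. Without the 9 members, 16 paternally and 10 maternally expressed genes averaged 1 CPM or more. Of the 16, 3 were more than 2-fold higher (*Rasgrf1*, *Peg12* and *Sfmbt2*) and 2 lower (*Igf2* and *Snurf*) on the per-million scale. Their median relative to all genes was 0.01. Of the 10, 1 was higher (*Phlda2*) and 0 were lower, with a median of -0.13. Together 4 of 26 were higher, beside the 11.4% of all genes, and 2 of 26 were lower, beside 3.71%. Relative to the median the balance turned, with 2 of 26 higher (*Rasgrf1* and *Phlda2*), beside 7.43%, and 3 of 26 lower (*Igf2*, *Snurf* and *Ppp1r9a*), beside 6.06%. *Peg12* and *Sfmbt2* were then at 0.90 and 0.99, within 2-fold. *Rasgrf1*, *Phlda2* and *Ppp1r9a* reached 1 CPM in 1 library only, so the filter favoured a difference for them.

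Apart from *Igf2*, the most abundant of these genes differed by less than 2-fold between the libraries. *Gnas*, which encodes a stimulatory G protein subunit, had 985 and 1131 CPM. *Igf2r*, the receptor that clears IGF2, had 501 and 752 CPM, a log2 ratio of 0.28 relative to the median. *Impact* had 109 and 106 CPM, and *Osbpl5* 46.4 and 48.1 CPM. *Ube3a*, which encodes a ubiquitin ligase, had 35.7 and 62.7 CPM, 1.76-fold higher in replicate 2. *Snurf* and *Snrpn* share one transcript, so the split of their reads is uncertain.

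Relatives of the members that are not imprinted give a second background. *Cdkn1b*, which encodes the related CDK inhibitor p27, had 20.1 and 19.1 CPM. Per kilobase of exon, the log2 ratio of *Cdkn1c* to *Cdkn1b* was -1.08 and -1.94, a mean of -1.51 ± 0.61 (SD, n = 2). *Cdkn1a*, for p21, had 133 and 217 CPM. *Dlk2*, the nearest relative of *Dlk1*, was listed at 0 in replicate 1 but at 0.474 CPM in replicate 2, at least 6.85-fold above the level of 3 reads in replicate 1. *Grb14*, a relative of *Grb10*, had 45.9 and 23.6 CPM, and was lower in replicate 2 as *Grb10* was. *Plagl2* had 5.73 and 12.03 CPM, the only one of the 8 relatives averaging 1 CPM or more that passed 2-fold, and relative to the median only *Grb14* passed it. The median of the 8 relative to all genes was 0.02.

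Markers of the cells moved between the libraries beside these genes. Relative to the median, 10 of 12 chondrocyte markers were lower in replicate 2. The summed level of all 12 went from 187530 to 130105 CPM, mostly *Col2a1* at 148953 and 100682 CPM. Of the 12, *Matn1*, for the cartilage protein matrilin-1, had 902 and 29.2 CPM, and *Sox9* had 252 and 279 CPM. Of 7 hypertrophic markers averaging 1 CPM or more, 6 were above the median gene. The exception was *Col10a1*, for collagen X, with 1752 and 2109 CPM and a log2 ratio of -0.04 relative to the median. The sum of all 8 went from 6407 to 22735 CPM, mostly *Spp1*. Of 5 osteoblast markers at that level, 4 were above the median gene, while the sum of all 7, mostly *Col1a1*, went from 1176 to 651 CPM. *Alpl* among the hypertrophic markers (0.462 and 1.92 CPM) and *Dmp1* among the osteoblast markers (0.116 and 40.4 CPM) reached 1 CPM in replicate 2 only, so the filter favoured a higher value for them. The part of these shifts in the levels of *Dlk1* and *H19* was not tested.

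Markers of adipocytes, whose differentiation *Dlk1* is known for holding back, and of skeletal muscle were low in sum. Adipocyte precursors were not examined as a list of their own. The adipocyte markers *Adipoq*, *Plin1* and *Cd36* were listed at 0 in both libraries, and the 7 adipocyte markers summed to 35.0 and 32.7 CPM. *Cebpa* had 18.3 and 14.8 CPM, *Lpl* 7.83 and 5.84 CPM and *Fabp4* 6.89 and 6.62 CPM. *Pparg*, for the factor that drives adipocyte differentiation, had 1.92 and 5.50 CPM, 2.87-fold higher in replicate 2, and its part in the level of *Dlk1* was not tested. The 7 skeletal muscle markers listed summed to 9.57 and 3.43 CPM, mostly *Tnnt3*, with *Myog* at 0 in both and *Myod1* at 0 in replicate 2. The 8 fibroblast markers summed to 3749 and 3069 CPM, mostly *Col1a2* at 2714 and 2620 CPM, with *Pi16* at 0 in both. *Dcn*, for the proteoglycan decorin, had 879 and 267 CPM, 3.29-fold lower and the only one past 2-fold of the 5 fibroblast markers compared, and *Pdgfrb* had 140 and 152 CPM. Markers of endothelial cells (4), leukocytes (4) and erythroid cells (5) summed to at most 3.50 CPM per list.

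**Figure D4:**
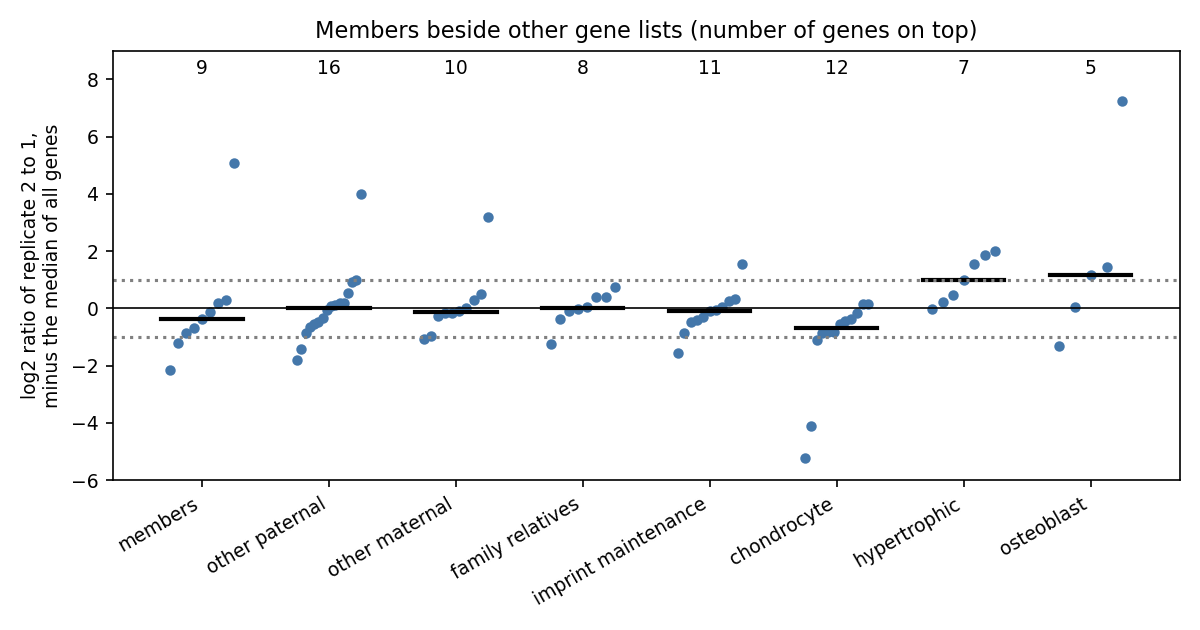
Log2 ratio of replicate 2 to replicate 1, minus the median of all genes, for each gene averaging 1 CPM or more in 8 lists, with a bar at the median of the list and dotted lines at 2-fold. The members without *Dlk1* sit at or below 0.27, and the hypertrophic and osteoblast lists have medians of 0.98 and 1.16.

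As a description around the value that chose the set, the genes whose ratio lay nearest to that of *Dlk1* were also listed. Likeness here is the distance between log2 ratios over 2 libraries among the 7903 genes averaging 10 CPM or more, of which 4 had a higher ratio than *Dlk1*. That minimum leaves out the imprinted gene *Rasgrf1*, which averaged 2.87 CPM and was 30.03-fold higher in replicate 2. The ranking therefore does not show whether imprinted genes moved with *Dlk1*. The nearest 5 were *Tinagl1*, *Nes*, *Col18a1*, *Hmga2* and *Bmp7*, with folds between 39.4 and 46.1. *Hmga2*, which encodes a chromatin protein of fetal and stem cells, had 5.35 and 247 CPM. *Nes*, which encodes the intermediate filament nestin, had 3.81 and 150.4 CPM. These 5 genes and *Dlk1* were all below 10 CPM in replicate 1 and passed that minimum through replicate 2, where they were high.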

How the data were processed

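RNA-sequencing libraries of Sox9GFPHi chondrospheres (2 replicates, 1 group by their titles) were stranded and single-end, with 50 base reads from poly(A) RNA. The authors aligned reads to GRCm38 (mm10) with GENCODE M25 by STAR 2.7.3a, quantified genes with the Partek E/M method in Partek Flow 10.0.21.0801, which can divide a read among genes, and deposited counts-per-million (CPM). An offset of 0.0001 CPM found on every deposited CPM value was subtracted.

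The members and all gene lists were chosen with earlier results of these data known. Log2 ratios used a pseudocount of 0.1 CPM, so they understate the change of low genes, and only genes averaging 1 CPM or more were compared. As 62.8% and 61.5% of low values were whole multiples of the step between values (within 0.02 reads), read numbers are estimates and no count model was fitted. No test or p-value was computed. Named genes are the 9 members, genes of the written lists, and the 5 genes nearest to *Dlk1* in log2 ratio among those averaging 10 CPM or more. Positions and exonic lengths come from GENCODE M21 on GRCm38, where 97.2% of names matched 1 gene, and start windows and microRNAs from RefSeq. Computation was tested on simulated data. Alternatives covered pseudocount, scaling, filter, fold, length and each library left out. Tools were scipy 1.17.1, pandas 2.3.3, numpy 2.4.6 and matplotlib 3.10.9 under Python 3.11.15.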

Additional observations from a re-analysis of the deposited data

How the results depend on the processing

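With 2 libraries of 1 condition, no difference between them can be tested, and the causes below were not tested unless the construction shows them. Members more than 2-fold lower numbered 1, and 2 under scaling by a trimmed mean, by the upper quartile or by the total without the 10 highest genes, under centring, or at 1.5-fold, but 0 at 4-fold. Other paternally expressed genes more than 2-fold higher numbered 3, and 1 with a pseudocount of 1 CPM, upper quartile scaling, centring or 4-fold, and 0 averaging 10 CPM or more. Those lower numbered 2, and 1 with at least 10 CPM and 0 at 4-fold. Other maternally expressed genes higher numbered 1, and 0 with at least 10 CPM, 2 with no filter and 3 at 1.5-fold. Those lower numbered 0, and 1 under the 3 scalings and centring, and 2 with no filter or at 1.5-fold.

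The log2 ratio of *Dlk1* to *Meg3* per length had a mean of -2.72 and reversed to 0.17 without replicate 1, with -5.61 without replicate 2. That of *H19* to *Igf2* was 1.499, and 0.28 without length (1.14 to 1.86 by library). That of *Cdkn1c* to *Cdkn1b* was -1.51, and -2.66 without length. Over the pseudocounts and scalings, the log2 ratio was 5.04 to 5.39 for *Dlk1* and -2.16 to -1.83 for *H19*, and that of *Mest* crossed 0, from -0.16 to 0.16. No paired analysis was possible because there is 1 group. Scaling by the total without the 10 highest genes raised all levels.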

Other observations

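Genes that keep or remove imprints in the early embryo, which the comparisons above leave out, were mostly near the median of all genes. Of 13 such genes, 11 averaged 1 CPM or more, with a median log2 ratio of -0.10 relative to all genes. *Trim28*, the corepressor of imprint-protecting zinc-finger proteins, had 91.8 and 110 CPM. *Zfp445*, such a zinc-finger protein, had 40.8 and 47.0 CPM, and *Dnmt1*, the maintenance DNA methyltransferase, had 31.8 and 49.3 CPM. *Uhrf1*, which brings DNMT1 to replicating DNA, was 3.68-fold higher in replicate 2 (2.84 and 10.5 CPM), and *Tet1*, an enzyme that oxidises methylated cytosine, was 2.61-fold lower (1.73 and 0.664 CPM, above 1 CPM in 1 library only). *Zfp57* had 0.116 and 1.66 CPM on about 5 and 70 reads, and *Dppa3* was listed at 0 in both.

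Several imprinted genes differed on few reads in at least 1 library, and of these all but *Rasgrf1* averaged under 1 CPM. *Magel2*, a relative and neighbour of *Ndn*, was listed at 0 in replicate 1 but at 0.973 CPM in replicate 2, at least 14.0-fold above 3 reads. *Tfpi2* had about 8 and 55 reads, *Asb4* about 41 and 11, and *Nap1l5* about 30 and 2. *Rasgrf1*, at 0.185 and 5.55 CPM, was 30.03-fold higher in replicate 2 (counting interval 15.0 to 70.4). With 0.1 CPM added to each value, its log2 ratio of 4.31 was the nearest to that of *Dlk1* among the imprinted genes listed. *Magel2*, at 0 in replicate 1, has no finite fold to rank beside it, and its counting interval starts at 10.9.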
